A study of Mus musculus with 31 samples.

Results

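Translation initiation and elongation factors were examined as a set in mouse whole brain across 31 BXD recombinant inbred strains. The set was every gene with a single symbol in the platform's probe annotation that begins with Eif1 to Eif6, Eef1 or Eef2, leaving out the sex-linked eIF2 gamma subunit genes and pseudogenes. It held 53 genes, measured by 61 probes, of 15096 named genes and 23040 spots. All 53 matched a RefSeq gene under the same symbol, and none was removed by a filter on low values.

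BXD/TyJ strains are inbred lines descended from C57BL/6J and DBA/2J mice, and each line is a fixed mixture of both parental genomes. Each strain gave 1 array, on which RNA pooled from 3 males aged 8 weeks, labelled with Alexa Fluor 647, was set against C57BL/6J male whole-brain RNA of the same age in Alexa Fluor 555. There were no dye swaps. No mouse carried an engineered allele or received a treatment, per the labels, and DBA/2J itself had no array. Because a strain is 1 pool on 1 array, strain and array cannot be told apart, and p-values measure only the spread between these arrays. Both channels hold whole brain, so the ratios cannot show whether markers of the labelled tissue are present. In whole brain, fewer cells of a type and less RNA per cell also cannot be told apart.

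Values are log ratios. The log base was not stated and was taken as 2, and the ratio was read as strain over C57BL/6J because the titles and the channels name them in that order. With the other direction every sign below would turn. Probes of a gene were averaged.

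Initiation begins when eIF2 brings the initiator tRNA to the small ribosomal subunit, held open by eIF1, eIF1A and the many-subunit eIF3. The cap-binding protein eIF4E, the scaffold eIF4G and the helicase eIF4A bring the mRNA, and eIF2B recharges eIF2 with GTP. In elongation, eEF1A delivers aminoacyl-tRNA to the ribosome, the other eEF1 subunits recharge eEF1A, and eEF2 moves the ribosome on by a codon. Control runs through kinases that phosphorylate eIF2, through the eIF4E-binding proteins downstream of mTOR, and through the kinase of eEF2. The mRNAs of eEF1A, eEF2, several eIF3 subunits and the ribosomal proteins are classic TOP mRNAs, which begin with a tract of pyrimidines and are translated together under mTOR.

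Start-site sequence is shown for Eif3f, the member whose covariation fit called the most other members. It is also shown for Eef1a1, which followed the ribosomal protein genes most closely. Eif1b is shown as a member of a pair called with every array left out in turn. Each line gives 50 bases before and 20 bases after the annotated start, from the RefSeq promoter table of GRCm38.p6. Capitals mark the longest unbroken run of C or T that overlaps the 5 bases on either side of the start. Eif3f lies on the plus strand at chr7:108934365-108934434, Eef1a1 on the minus strand at chr9:78481705-78481774 and Eif1b on the plus strand at chr9:120492556-120492625.

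Eif3f: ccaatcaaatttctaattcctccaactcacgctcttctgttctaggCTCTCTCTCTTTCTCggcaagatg

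Eef1a1: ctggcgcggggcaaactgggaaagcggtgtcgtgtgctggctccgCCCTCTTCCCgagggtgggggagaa

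Eif1b: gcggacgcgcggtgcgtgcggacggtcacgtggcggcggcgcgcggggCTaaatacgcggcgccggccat

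The run was 15 bases in Eif3f, 10 in Eef1a1 and 2 in Eif1b. It was 5 bases in Eef1a2, 4 in Eef1b2 and 2 in Eef2. The eIF3 genes in the promoter table other than Eif3f and Eif3l had runs of 2 to 5 bases. Of the 53 genes, 41 were in the table, and 7 of these (17.1%) had a run of at least 8 bases, against 11.0% of all 27025 genes. The other 5 were Eef1akmt2, Eif3l, Eif4e and Eif4enif1, each with 10 bases, and Eif2ak4 with 9. Where a gene had several annotated starts, its longest run was counted. Taken by annotated start, 14.3% of 56 starts of the factors had such a run, against 9.4% of all 32851. Run length describes these letters only. Whether the mRNAs begin at these annotated starts was not tested, so a run cannot be read as the pyrimidine tract of a TOP mRNA.

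The arrays did not form 1 uniform set. On principal components of all features outside the set, 7 arrays stood apart on the first component (BXD38, BXD36, BXD28, BXD23, BXD20, BXD8 and BXD6) and 8 others on the second (BXD42, BXD40, BXD39, BXD34, BXD33, BXD27, BXD22 and BXD15). They are called the first and the second array group here, and the other 16 the core arrays. The labels give no batch that matches them. Within the core, BXD5 and BXD32 stood farthest from the rest, with mean correlations to the other core arrays of 0.638 and 0.641 against 0.712 to 0.802. BXD5 was the array farthest from its group mean for 10 of the 53 genes (18.9%, against 12.0% of all genes), and BXD32 for 11 (20.8%, against 10.2%). Covariation is therefore given within array groups and with and without these 2 arrays.

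Most translation factors had small average ratios against C57BL/6J. By limma's moderated test with Benjamini-Hochberg adjustment over 21262 features (genes and unnamed spots), 36 of 53 differed from 0, where 76.1% of all features did. Of these, 17 were positive (42.1% of all features) and 19 negative (33.9% of all features). Only 10 also passed a test against a change of 1.2-fold, where 27.9% of all features did. These were 1 positive (12.4% of all features) and 9 negative (15.6% of all features). The median absolute mean was 0.19 for the factors and 0.22 for all named genes. The reference stands for 1 control sample, so its own spread and any fixed effect of dye are in these means. Over the 16 core arrays alone, 41 of 53 passed, where 76.1% of all features did.

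Spot position moved with the sign. Probe numbers place spots in runs of 8, and 7 factors (Eif3b, Eif3h, Eif3i, Eif4a3, Eif4e2, Eif4e3 and Eif4ebp1) were measured only at the eighth place of a run. All 7 had a negative mean that passed the test, with a median of −0.53. The same was true of 79.7% of all 1689 genes measured only at that place, whose median was −0.48. Of the 45 factors with no probe there, 11 had a negative mean that passed the test (24.4%, against 27.5% of 13187 genes). With these probes left out, 29 of 46 factors passed, where 74.5% of all features did, with 18 positive (46.7% of all features) and 11 negative (27.8% of all features). The part of spot position in these means was not tested, and eighth-place genes are named as such below.

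**Figure D1:**
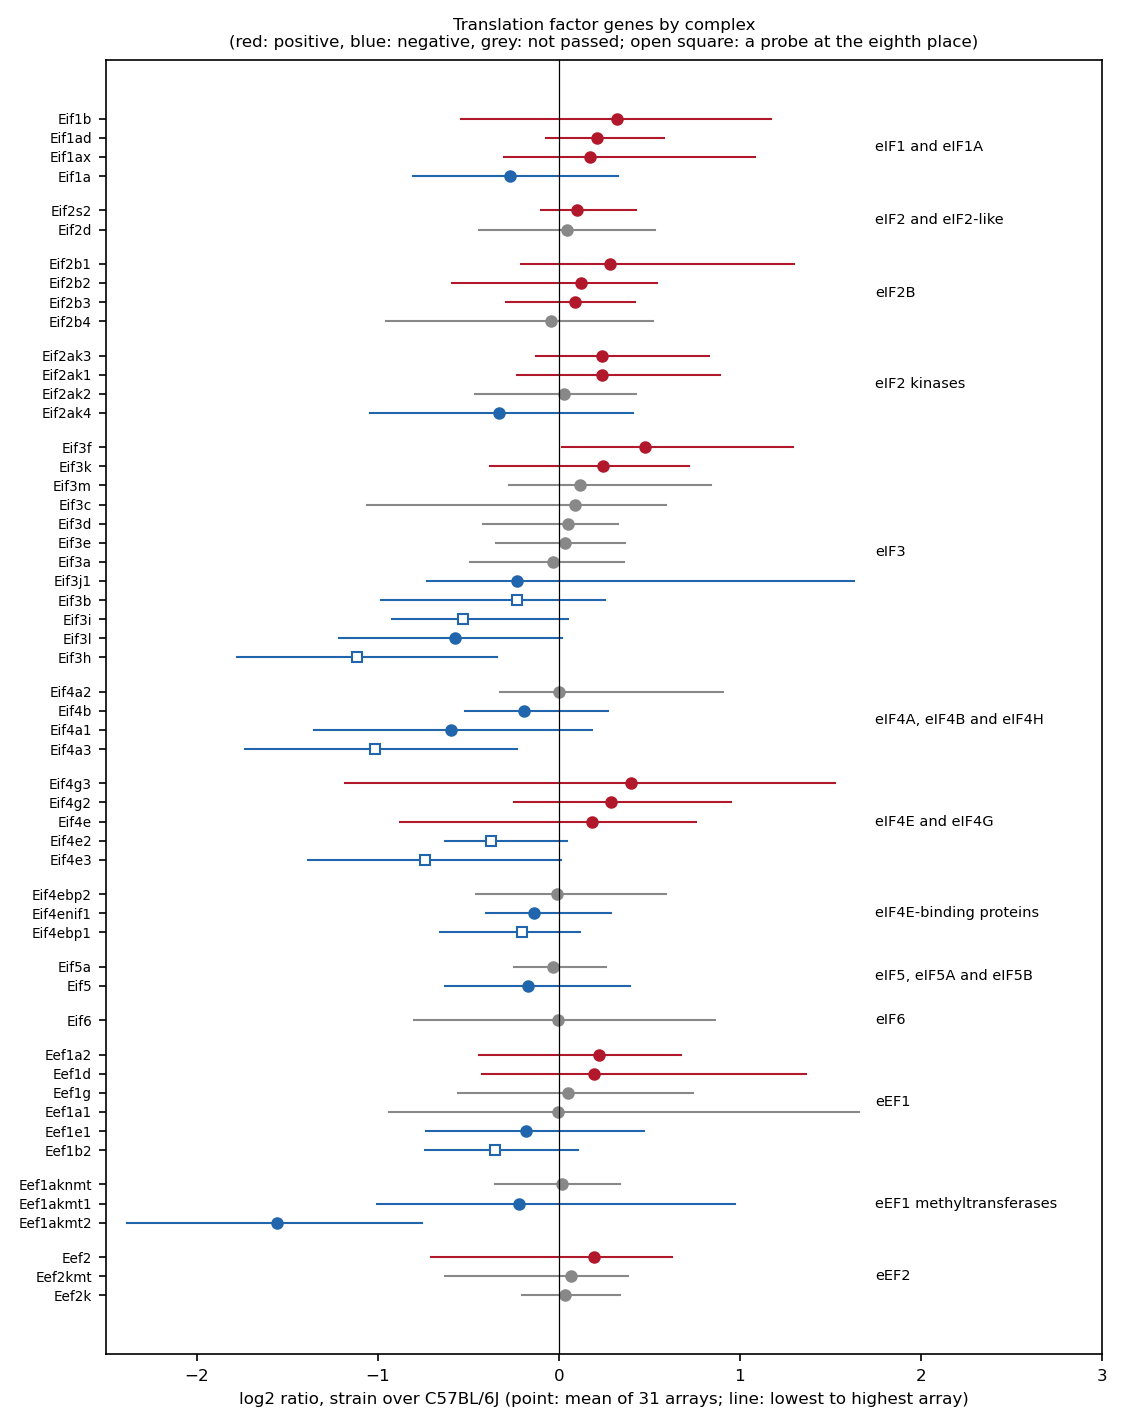
Mean log2 ratio, strain over C57BL/6J, of each of the 53 genes (points) with the lowest and highest of the 31 arrays (lines), ordered by complex. Red and blue mark the 17 positive and 19 negative means that passed limma's test, and open squares mark genes with a probe at the eighth place, which all lie below 0.

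Among the genes grouped under eIF1 and eIF1A by symbol, 3 of 4 had positive means. Eif1b, which encodes a close relative of eIF1, was highest: its log2 ratio ran from −0.54 in BXD36 over a median of 0.30 to 1.17 in BXD5, with an average of 0.32 ± 0.06 (SE, n = 31; adjusted p by limma = 3.20e-05). Values were positive on 27 of 31 arrays. Eif1a was lowest, from −0.80 in BXD33 over −0.30 to 0.33 in BXD32, with a mean of −0.27 ± 0.05. Eif1ad and Eif1ax, of the eIF1A family, had means of 0.21 and 0.17 that also passed.

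eIF2 was represented by its beta subunit gene Eif2s2, whose ratio ran from −0.10 to 0.43 with a mean of 0.10 ± 0.02 that passed the test. Eif2d, which encodes a related factor that delivers tRNA without GTP, had a mean of 0.04 ± 0.03 that did not. Of the 4 measured eIF2B subunits, 3 had positive means. Eif2b1 was highest, from −0.21 in BXD6 over 0.20 to 1.30 in BXD38 (mean 0.28 ± 0.06), and Eif2b4 lowest, from −0.96 in BXD22 to 0.52 in BXD33 (mean −0.05 ± 0.05, not passed). BXD38 was thus the highest strain for Eif2b1, as it was for Eif2b3 at 0.42.

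The kinases of eIF2 differed in sign. Eif2ak3, which encodes the endoplasmic reticulum stress kinase PERK, ranged from −0.13 to 0.83 around a median of 0.25 (mean 0.24 ± 0.04). Eif2ak1, the heme-regulated kinase, had the same mean of 0.24 ± 0.05. Eif2ak4, which encodes GCN2, the kinase that senses uncharged tRNA, ran from −1.04 in BXD18 over −0.32 to 0.41 in BXD23 (mean −0.33 ± 0.06; limma adjusted p = 2.42e-06). Eif2ak2, which encodes the double-stranded RNA kinase PKR, had a mean of 0.03 that did not pass.

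Of 12 measured eIF3 subunits, 2 were positive, 5 negative and 5 did not pass. Eif3f, an MPN-domain subunit, was the only member positive on all 31 arrays and the only positive one that passed against 1.2-fold. Its ratio ran from 0.02 in BXD8 over 0.45 to 1.30 in BXD5 (mean 0.47 ± 0.05; limma adjusted p = 8.80e-11), and its core mean of 0.64 lay above those of the first (0.21) and second (0.37) array groups. Eif3h, the other MPN subunit, was lowest, from −1.78 in BXD40 over −1.12 to −0.34 in BXD32 (mean −1.11 ± 0.06), from an eighth-place probe. Eif3i and Eif3b, which sit together in the complex, also had eighth-place probes and means of −0.53 and −0.23. Eif3l, with no probe there, ranged from −1.21 to 0.02 (mean −0.58 ± 0.05), whereas Eif3k, its partner in the complex, ranged from −0.38 to 0.72 (mean 0.24 ± 0.04).

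The mRNA-binding side of initiation was split. None of the 4 eIF4A and eIF4B genes had a positive mean that passed. Eif4a3, the helicase of the exon junction complex, was lowest at −1.02 ± 0.07 and negative on all 31 arrays, from an eighth-place probe. Eif4a1, the main translational helicase in many tissues, ran from −1.36 in BXD36 over −0.56 to 0.18 in BXD11 (mean −0.60 ± 0.06; limma adjusted p = 1.92e-10). Eif4a2, its relative abundant in brain, had a mean of 0.004 that did not pass. Of the eIF4E and eIF4G genes, the scaffold gene Eif4g3 was highest, from −1.18 in BXD38 over 0.40 to 1.53 in BXD5 (mean 0.40 ± 0.08). Eif4g2, which encodes a scaffold without the eIF4E site, followed at 0.29 ± 0.04 and Eif4e at 0.19 ± 0.05. The relatives of eIF4E were lower, Eif4e2 at −0.38 and Eif4e3 at −0.74, both at the eighth place. Among eIF4E-binding proteins Eif4ebp1 was lowest (−0.20 ± 0.04, eighth place) and Eif4ebp2, the main form in brain, highest with a mean of −0.01 that did not pass.

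Eif5, which stimulates GTP hydrolysis by eIF2, had a mean of −0.17 ± 0.04, and Eif5a, the hypusine-bearing factor, one of −0.03 that did not pass. Eif6, which keeps large ribosomal subunits from joining too early, averaged −0.005 with a wide range from −0.80 in BXD36 to 0.86 in BXD5.

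Of the 6 genes grouped under eEF1 by symbol, 2 were positive, 2 negative and 2 did not pass. Eef1e1, 1 of the negative ones (−0.18 ± 0.05), was counted here for its symbol and not as a known subunit of eEF1. Eef1a2, the form of eEF1A typical of mature neurons and muscle, was highest, from −0.44 in BXD8 over 0.24 to 0.68 in BXD5 (mean 0.22 ± 0.05; limma adjusted p = 6.37e-05). Eef1a1, the widespread form, ran from −0.94 in BXD8 over −0.12 to 1.66 in BXD5, and its mean of −0.004 ± 0.09 did not pass. Over the 16 core arrays its mean was 0.35, against −0.45 in the first and −0.31 in the second array group. Eef1b2 was lowest at −0.35 ± 0.03, but 1 of its 2 probes lay at the eighth place. Eef1akmt2, a lysine methyltransferase of eEF1A, had the lowest mean of all members, without an eighth-place probe. It ran from −2.39 in BXD5 over −1.53 to −0.76 in BXD27 (mean −1.56 ± 0.07; limma adjusted p = 5.81e-20) and was negative on all 31 arrays. Eef1aknmt, a further methyltransferase of eEF1A, averaged 0.02. Eef2 had a mean of 0.20 ± 0.06 that passed, and its kinase gene Eef2k (0.03 ± 0.03) and methyltransferase gene Eef2kmt (0.06 ± 0.03) did not.

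Eef2 and Eef1d were the elongation genes most tied to array group. In the first array group Eef2 lay between −0.71 and −0.11, below every core array (0.01 to 0.62) and every array of the second group (0.03 to 0.51). Array group held 80.0% of its variance. Eef1d, which encodes an exchange factor of eEF1A, lay between 0.26 and 1.37 on the core arrays and between −0.42 and 0.14 on all others, and array group held 67.4% of its variance. Eif4a3, an initiation gene with an eighth-place probe, lay between −1.73 and −1.35 in the first group. This was below every core array (−1.22 to −0.23) and every array of the second group (−1.22 to −0.90), and array group held 71.0% of its variance. Eif3m, a further eIF3 subunit, stood the other way, at 0.25 to 0.84 in the first group and −0.28 to 0.17 in the second, but its core values of −0.23 to 0.63 overlapped both. The median share of variance between array groups was 29.9% for the factors and 33.9% for all named genes. Eef2, Eef1d, Eif4a3 and Eif3m were named here after their values were seen. How many of all features separate the array groups in this way was not counted. The groups were cut on components that held 28.7% and 11.9% of the variance of all features outside the set. Separation of the groups therefore cannot be read as particular to these genes.

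Spread within array groups was like that of other genes, with a median SD of 0.21 for both the factors and all named genes. The widest was Eif3j1, a loosely bound eIF3 subunit, with an SD of 0.45, and this rested on the second group, where BXD27 stood at 1.63 and the group median at −0.60. Eef1a1 (0.42), Eif4g3 (0.41), Eef1akmt1 (0.34) and Eif1ax (0.34) followed. The narrowest were Eef2k and Eif5a at 0.11, Eif2s2 at 0.11, and Eef1aknmt and Eif2d at 0.13.

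Probes of one gene often disagreed, which bounds what can be said of single factors. All 7 factors with several probes had probe means of opposite sign, in Eif4a2 only at 0.008 and −0.0009. In the others they were 0.09 and −0.10 for Eef1a1, 0.51 and −0.07 for Eef1a2, −1.01 and 0.30 for Eef1b2, −0.03 and 0.41 for Eef1d, and 0.18 and −0.12 for Eif2ak2. For Eef2 the 3 probes had means of 0.36, −0.02 and 0.25. The correlation between probes within array groups was 0.31 for Eef1a1, −0.06 for Eef1a2, 0.17 for Eef1b2, 0.14 for Eef1d and 0.06 for Eif2ak2. It was 0.21 for Eif4a2, and −0.17, 0.13 and 0.14 between the 3 probes of Eef2. Eef1a1 and Eef1a2 are near-identical in sequence, and whether their probes tell them apart was not tested.

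Covariation over strains was then asked for every factor: a limma fit over all other features with the factor's log2 ratio as covariate and array group as a factor. Of 2756 tests of 1 factor by another, 26 passed (0.943%), where 0.531% of all feature tests did. They came from 13 of the 53 fits and joined 16 of 1378 pairs, 12 with a positive and 4 with a negative correlation. Without BXD5 only 8 calls in 6 pairs were made, where 0.265% of all feature tests passed, and 3 of these pairs were among the 16. Without BXD5 and BXD32 there were 4 calls in 4 pairs, where 0.165% of all feature tests passed, and 1 pair was shared. Leaving out any other single array gave 20 to 36 calls.

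**Figure D2:**
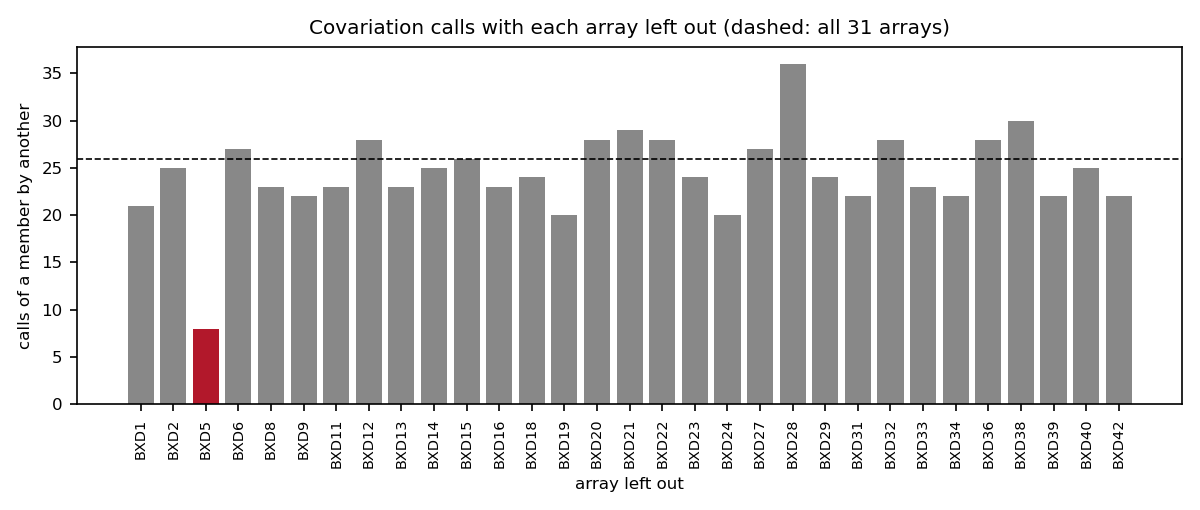
Number of calls of 1 factor by another (vertical axis) when the array named on the horizontal axis is left out; the dashed line marks the 26 calls from all 31 arrays. Without BXD5 the count is 8, and without BXD28 it is 36.

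**Figure D3:**
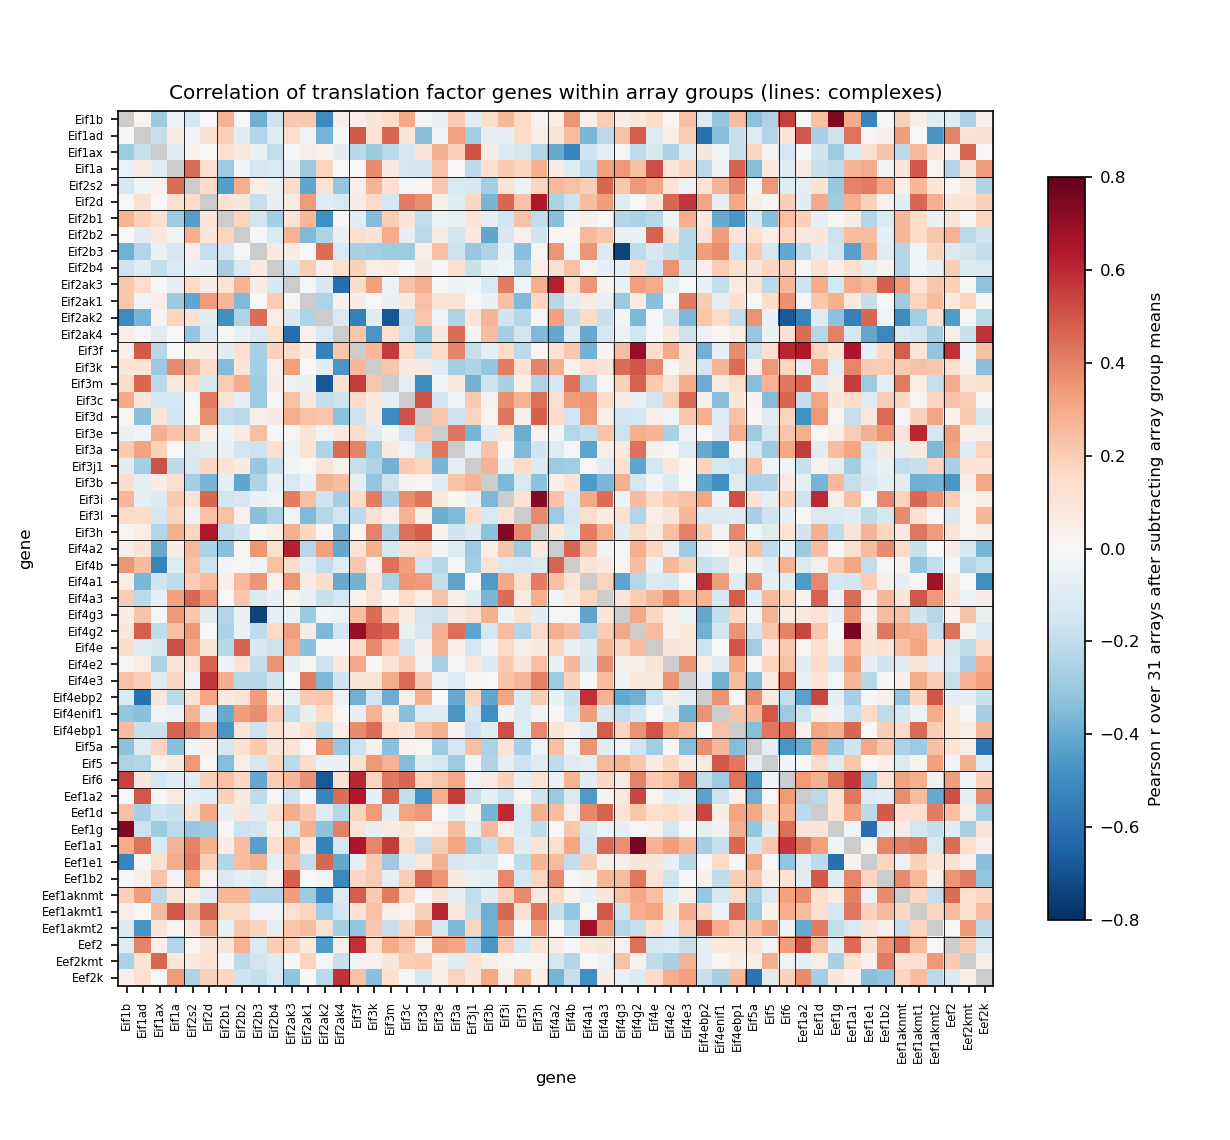
Pearson correlation of every pair of the 53 genes over 31 arrays after subtracting each array group's mean, in colour from −0.8 to 0.8, with lines between complexes. Most squares are pale, the strongest colours are single pairs scattered over the map, and the mean over all 1378 pairs is 0.04.

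The strongest pair joined elongation to initiation. Eef1a1 and Eif4g2 had a correlation of 0.76 within array groups, with adjusted p-values of 6.80e-04 in the fit on Eef1a1 (6.53% of all features passed) and 0.00216 in the fit on Eif4g2 (1.47% of all features passed), and were called with each single array left out. On the core arrays Eif4g2 ran from 0.08 in BXD16 over 0.34 to 0.95 in BXD5, and Eef1a1 from −0.29 in BXD16 over 0.23 to 1.66 in BXD5. The same strains were thus lowest and highest for both genes there, and BXD8 was lowest for both in the first array group. The correlation was 0.92 on the core arrays, 0.67 in the first group and 0.85 in the second. Spearman's rho on the core arrays was 0.84 (permutation p = 7.00e-05, adjusted 9.45e-04), and the permutation p of Pearson's r was 1.00e-05 (adjusted 2.70e-04), the smallest that 100000 resamples can give. The pair was taken for its size, so these are a description. Without BXD5 it was 0.67, and without BXD5 and BXD32 0.64, when the pair was no longer called. The Eef1a1 probes had correlations of 0.65 and 0.59 with Eif4g2, and 0.57 and 0.39 without BXD5. On the core arrays without the 2 farthest from the Eef1a1 median the correlation was 0.73 (permutation adjusted p = 0.0346), whereas in the first group it turned to −0.67 over the 5 arrays left (exact permutation adjusted p = 0.285).

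Eef1g, which encodes the gamma subunit of eEF1, and Eif1b were called with each array left out in turn and also without BXD5 and BXD32 together. On the core arrays Eef1g ran from −0.50 in BXD32 over 0.14 to 0.74 in BXD21, and Eif1b from 0.05 in BXD24 over 0.37 to 1.17 in BXD5. The correlation within array groups was 0.75, with limma adjusted p = 0.00451 in the fit on Eef1g (0.174% of all features passed) and 0.00448 in that on Eif1b (0.169% of all features passed). It was 0.69 without BXD5 and 0.74 without BXD5 and BXD32. It was 0.85 on the core arrays (permutation p = 2.00e-05, adjusted 2.70e-04; rho 0.89), with 0.64 in the second group and −0.06 in the first, where all 7 Eef1g values lay between −0.56 and −0.23. Each gene had 1 probe, and both probes lay in block 40 of the array at place 3. Probe pairs that share block and place had a mean correlation of 0.04 over all named probes, against 0.001 for all pairs. The part of spot position in this pair was not tested.

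Eif3h and Eif3i were the strongest pair within a complex, at 0.74, and the only subunits of eIF3 called with each other apart from Eif3f and Eif3m. Over the core arrays Eif3h ran from −1.49 to −0.34 and Eif3i from −0.92 to 0.05, with BXD32 highest for both. The correlation was 0.70 on the core arrays, 0.68 in the first and 0.88 in the second group, and 0.68 without BXD5 and BXD32. In the fit on Eif3h 0.0141% of all features passed and in that on Eif3i 0.202%. The call was lost without BXD32. Both genes were measured at the eighth place, where pairs of named probes had a mean correlation of 0.06.

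**Figure D4:**
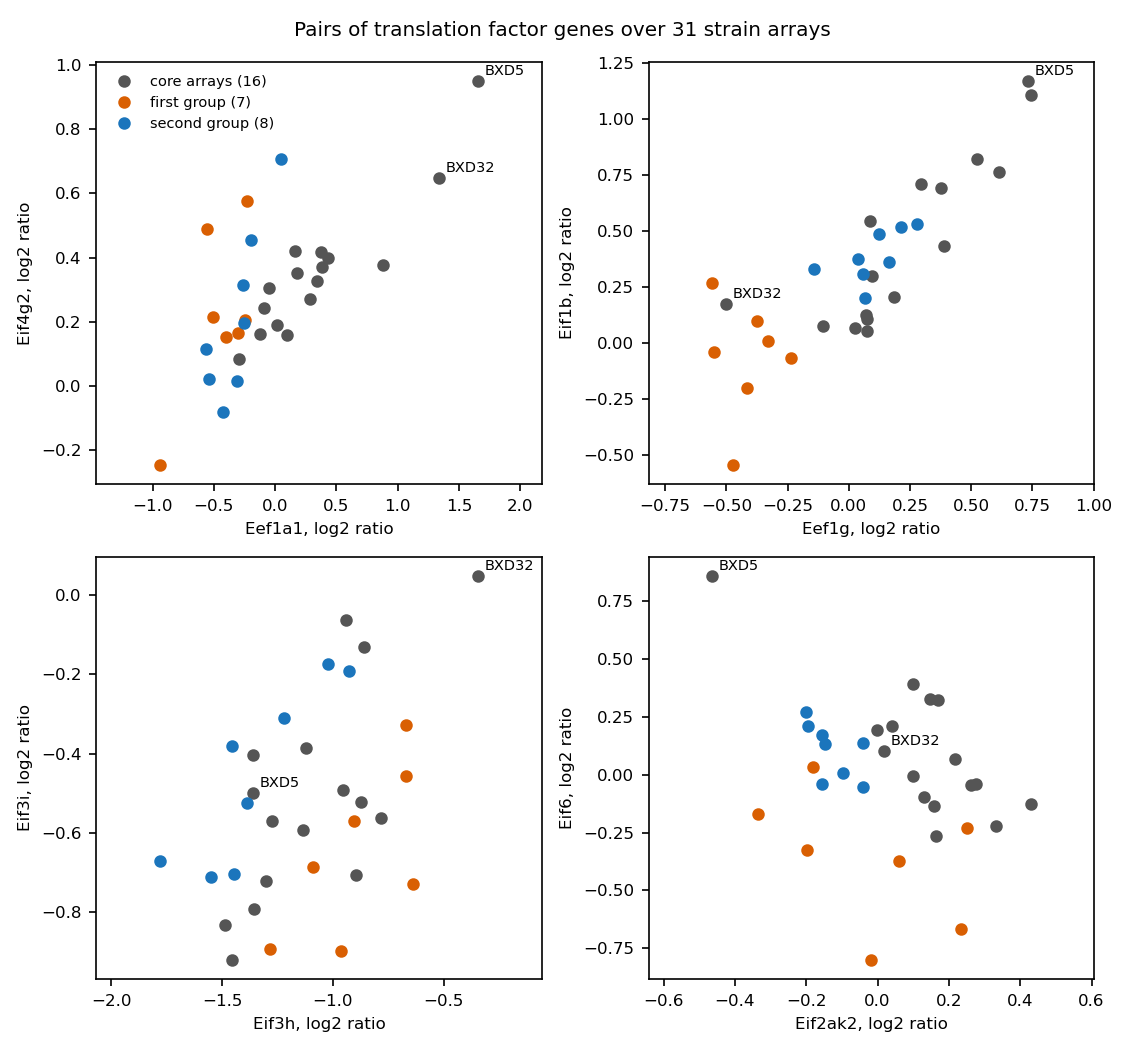
Log2 ratios of 4 pairs of factors on the 31 arrays, coloured by array group (16 core, 7 first, 8 second), with BXD5 and BXD32 named. BXD5 lies at the upper right for Eef1a1 with Eif4g2 and at the upper left for Eif2ak2 with Eif6, and BXD32 at the upper right for Eif3h with Eif3i.

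Eif3f had the most partners. In its fit 6 other factors passed, all with positive slopes, where 4.2% of all features passed: Eif4g2 (correlation 0.70), Eef1a1 (0.65), Eef1a2 (0.64), Eif6 (0.60), Eef2 (0.58) and Eif3m (0.56). The set thus spans scaffold, elongation and ribosome-joining factors. Without BXD5, where Eif3f was 1.30, none of the 6 passed, where 0.0094% of all features did. Leaving out the other arrays 1 at a time gave 3 to 8 factors, where 2.45% to 5.14% of all features passed. Without BXD5 the correlation was 0.69 for Eef2, 0.58 for Eef1a2 and 0.57 for Eif4g2, and lay between 0.26 and 0.41 for the other 3. The Eef1a2 probe of mean 0.51 had a correlation with Eif3f of 0.69 over all arrays and 0.73 without BXD5, and the probe of mean −0.07 had 0.14 and −0.04. The Eef2 probes of means 0.36, −0.02 and 0.25 had 0.15, 0.59 and 0.42 over all arrays. Without BXD5 they had 0.55, 0.32 and 0.42, so the 0.69 of Eef2 belongs to the average of its probes. Over the second array group Eif3f had a correlation of 0.18 with Eef1a1, 0.23 with Eif6 and −0.40 with Eif3m.

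Eef1a1 called 5 factors, 4 with positive slopes (Eif4g2, Eif3f, Eif6 and Eif3m) and Eif2ak2 with a negative one, where 6.53% of all features passed. Eif2ak2 called 3, all negative, where 5.26% of all features passed. Its correlation was −0.69 with Eif3m, −0.68 with Eif6 and −0.54 with Eef1a1. In the second array group the sign was positive with Eif3m (0.41) and Eef1a1 (0.54) and negative with Eif6 (−0.60). The probes of Eif2ak2 had correlations of −0.73 and −0.24 with Eif3m, and −0.57 and −0.04 without BXD5. On the core arrays Eif2ak2 was lowest, and Eif6 and Eif3m highest, in BXD5 (−0.46, 0.86 and 0.63). Without BXD5 the correlations were −0.49, −0.49 and −0.24, and none of the 3 pairs was called. Eif6 and Eif4g2 each called 2 factors, where 1.47% of all features passed.

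The lowest correlation was that of Eif2b3, the gamma subunit of eIF2B, with Eif4g3, at −0.74. It was −0.80 on the core arrays, −0.75 in the first group and −0.06 in the second, and −0.66 without BXD5. In the fit on Eif2b3 0.0047% of all features passed and in that on Eif4g3 0.151%. The call was lost without BXD5 and also without BXD1, BXD20, BXD40 or BXD42. Eef1akmt2 with Eif4a1 (0.67) was called with Eif4a1 as covariate alone (adjusted p = 0.0351, where 0.169% of all features passed), and not without BXD5, BXD11, BXD13 or BXD18. In BXD5 both stood low, at −2.39 and −1.06.

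Within complexes of several genes the mean correlation over strains lay between −0.18 and 0.19. The mean correlation over all 1378 pairs within array groups was 0.04 (jackknife SE over arrays 0.02), against 0.0009 over all pairs of named genes, and 0.03 without BXD5 and BXD32. Of the pairs, 56.9% were positive, where 49.8% of all gene pairs were, and 2.25% lay above 0.5, where 1.34% did. Over the 66 pairs of eIF3 subunits the mean was 0.04, from −0.50 to 0.74. It was 0.05 over the 15 pairs of genes grouped under eEF1 by symbol, from −0.60 for Eef1e1 with Eef1g to 0.49. The eIF4E-binding proteins (0.19), the eIF4A and eIF4B genes (0.17) and the eIF4E and eIF4G genes (0.14) had higher means, from 3 to 10 pairs each. The last was 0.01 without BXD5, with a mean of 0.48 on the core arrays and −0.11 and −0.10 in the first and second groups. The eIF2 kinases had the lowest mean, −0.18, with values of −0.19, −0.17 and −0.18 in the 3 array groups. Their lowest pair was Eif2ak3 with Eif2ak4 at −0.61. Eif2d with Eif2s2, the only pair grouped under eIF2, had 0.16. These means are descriptions with no test, and pairs share genes and arrays.

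The factors were last set beside 67 cytosolic ribosomal protein genes, whose covariation in these data was already known when they were chosen. Their mean log2 ratio ran from 0.07 to 0.69 on the core arrays (median 0.30), from −0.36 to 0.08 in the first group and from −0.26 to 0.08 in the second. In a limma fit with this profile as covariate and array group as a factor, a fit added after the data were seen, 3 of 53 factors passed, where 2.75% of 21195 features did. They were Eef1a1 (adjusted p = 1.96e-04), Eif4g2 (0.00277) and Eif3k (0.0390), all with positive slopes. Without BXD5 and BXD32, Eef1a1 (0.00734) and Eif4g2 (0.0482) passed, where 0.269% of features did.

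Eef1a1 followed the ribosomal protein genes at a correlation of 0.80 within array groups, with 0.86 on the core arrays, 0.68 in the first and 0.77 in the second group, and 0.74 without BXD5 and BXD32. For Eif4g2 the values were 0.73, 0.74, 0.69 and 0.93, and 0.68 without both arrays. Eif3k, with 0.61, lay between 0.14 and 0.72 on the core arrays and was highest in BXD32, as was the ribosomal mean. The median over all 53 factors was 0.23, where that of 15029 other named genes was −0.002. Eif2ak4 was lowest at −0.34. Eif3f did not pass in this fit (adjusted p = 0.143).

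**Figure D5:**
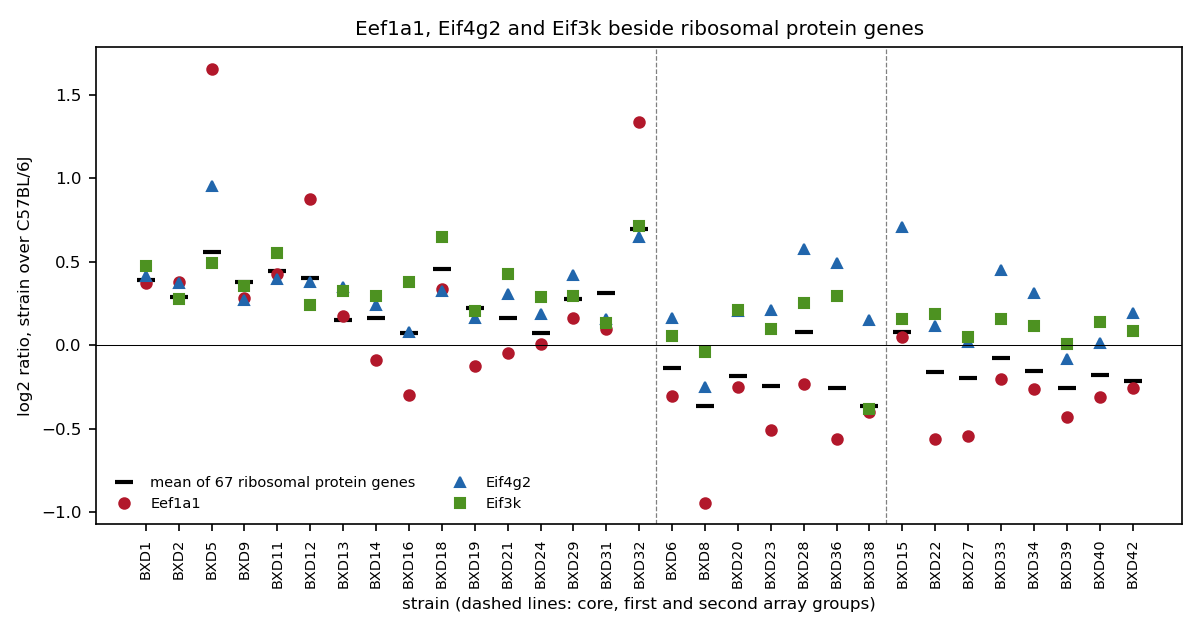
Log2 ratios of Eef1a1, Eif4g2 and Eif3k and the mean of 67 ribosomal protein genes (black bars) on each of the 31 arrays, with dashed lines between the core, first and second array groups. Eef1a1 reaches 1.66 in BXD5 and 1.34 in BXD32, and the ribosomal mean is highest in BXD32 at 0.69.

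Other translation genes gave mixed signs in the test against 0, in which 42.1% of all features were positive and 33.9% negative. Of 21 measured cytosolic factors outside the set, such as release and recycling factors, 8 were positive and 7 negative, among them the release factor gene Etf1 at −0.34 ± 0.03 and Denr, which acts in reinitiation, at 0.34 ± 0.04. Paip2b, with a probe at the eighth place, had a mean of −0.86 ± 0.08. Of 16 measured signalling genes 9 were positive and 2 negative. Mknk1, with a probe at the eighth place, had the smallest adjusted p by limma among them (4.06e-14) and a mean of −0.78 ± 0.06. Ppp1r15a, which targets the phosphatase of eIF2, had a mean of 0.53 ± 0.06, and the mTOR complex gene Mlst8 one of 0.41 ± 0.05. Of 6 mitochondrial factors 3 were positive and 2 negative, and the recycling factor gene Mrrf was lowest at −0.86 ± 0.07.

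Mean profiles of marker lists were set beside the mean profile of the factors within array groups. The correlation was 0.35 for 10 neuron markers, 0.31 for 5 choroid plexus markers, 0.25 for 8 microglia markers, 0.20 for 8 pituitary markers, 0.15 for 9 oligodendrocyte markers and 0.07 for 4 blood markers. It was −0.29 for 8 endothelial and −0.27 for 9 astrocyte markers. That of the 67 ribosomal protein genes was 0.80, and 0.69 without BXD5 and BXD32. For the other translation lists it was 0.62 (21 cytosolic factors), 0.13 (16 signalling genes) and −0.008 (6 mitochondrial factors). Within lists, the mean correlation between markers was −0.03 for neuron, −0.08 for choroid plexus, −0.10 for blood and 0.04 for microglia markers. It was 0.06 for endothelial, 0.09 for astrocyte, 0.20 for oligodendrocyte and 0.22 for pituitary markers, and 0.25 for the ribosomal protein genes. Within the other translation lists it was 0.01 for cytosolic factors, 0.006 for signalling genes and −0.04 for mitochondrial factors. Whether the mean of a marker list follows its cell type was not tested. The part of cell composition in the covariation was not tested.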

How the data were processed

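Whole-brain RNA of 31 BXD strains was measured on 2-colour arrays, 1 per strain. The deposited values are log2 ratios per spot (base and direction taken as said above), with 0 missing values. All 31 columns hold the same sorted values, as quantile normalisation between arrays leaves them, though no label or note from the authors records that step. The submitters' processing notes name R 2.0.0 and limma, with no role. Background correction and spot filtering were not given in the sources used here. Array intensities were not analysed, so no probe could be called dim, and the number of arrays limits the precision.

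R 4.3.3 with limma 3.58.1 was used (lmFit, eBayes, two-sided, Benjamini-Hochberg at 0.05 over all features). Array groups were the arrays with a score above 0.2 on the first or second principal component of features outside the set. For 9 named pairs, correlations within each array group were tested by permutation (exact for 7 and 8 arrays, otherwise 100000 resamples, two-sided), adjusted over 27 tests. These pairs were taken for their size among all pairs, so the permutation p-values are a description. Alternatives were each probe on its own, a 1.2-fold threshold, other weights, centring, robust variances, eighth-place probes left out, core arrays alone, no array group, principal components, Spearman correlation and arrays left out. On simulated data with 21262 features, shifts of 0.25 and 0.5 were recovered in 67% and 96%, and correlations of 0.6 and 0.8 in 50% and 99%. The simulated noise was independent, without array groups or outlying arrays, and correlations were set with Eef1a1 alone. These shares therefore need not hold for the real arrays.

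Named genes were, by rule, the highest and lowest mean of each complex, the 5 widest and 5 narrowest within-group SDs, the 6 highest and 3 lowest pairs, factors with disagreeing probes, the factor calling most others, the 10 genes nearest the eEF1 profile and up to 3 genes of each other translation list. Others, among them the remaining called pairs and those tied to array group, were chosen after their values were seen. The members and lists were chosen with earlier results of these data known.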

Additional observations from a re-analysis of the deposited data

How the results depend on the processing

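No paired analysis was possible because all arrays form 1 group and replicate numbers are strain numbers. The count against 0 (36 of 53) was 10 against a change of 1.2-fold and 29 to 41 under the other settings, and 35 to 38 with each array left out. Signs turned, with a call on at least 1 side, in Eef1a1 (0.35) and Eif4ebp2 (0.11) over the core arrays and Eef1b2 (0.30) without its eighth-place probe. Over the core arrays they also turned, with no call on either side, in Eif6, Eif3a, Eif5a, Eef2k and Eif4a2. Covariation calls (26) were 359 without array group in the fit, where 13.0% of all feature tests passed, 10 with 3 principal components in its place (0.135%) and 4 without BXD5 and BXD32, and 8 to 36 with each array left out. For Eif3f (6) they were 16 without array group, 1 with principal components and 0 to 8 with each array left out. Calls on the ribosomal profile (3) were 2 to 4. Of 27 permutation tests of named pairs 11 passed, and 3 with the 2 farthest arrays left out. Means of pairwise correlation that moved were those over all factors, to 0.0219 with principal components removed and 0.0638 on core arrays. On core arrays they were also 0.590 for eIF2, 0.193 for eIF2B, −0.00847 for eIF3, 0.0218 for eIF4A and eIF4B and 0.484 for eIF4E and eIF4G. As deposited they were 0.0265 for eIF1, −0.0198 for eIF4A and eIF4B, 0.206 for eEF1, −0.158 for its methyltransferases and −0.188 for eEF2. Without eighth-place probes they were 0.0125 for eIF3 and 0.361 for eIF4E-binding proteins. With each array left out they ran from 0.0296 to 0.0471 over all factors, −0.121 to −0.0668 for eIF1, −0.158 to 0.267 for eIF2, −0.0911 to 0.00654 for eIF2B and −0.197 to −0.161 for eIF2 kinases. For eIF3 they ran from 0.0227 to 0.0475, for eIF4A and eIF4B from 0.134 to 0.256, for eIF4E and eIF4G from 0.0145 to 0.204, for eIF4E-binding proteins from 0.0845 to 0.2497 and for eIF5 from −0.135 to −0.0247. For eEF1 they ran from 0.0310 to 0.0782, for its methyltransferases from −0.00786 to 0.105 and for eEF2 from −0.0534 to 0.132. The cause of these shifts was not tested.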

Other observations

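Genes outside the set were ranked by likeness, within array groups, to the mean profile of the 6 genes grouped under eEF1 by symbol. The 10 nearest had correlations from 0.71 to 0.79 over 31 arrays. They were Snw1 (0.79), a splicing and transcription cofactor gene, then Pdap1, Dnajb13, Ube2a, the respiratory chain gene Cox7c, Commd8, the ribosomal protein genes Rpl8, Rps14 and Rps28, and the mitochondrial ribosomal protein gene Mrpl55 (0.71). On the core arrays alone their correlations lay between 0.68 and 0.85. They were picked from all named genes for this likeness, so the values are a description.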
